A study of Mus musculus with 6 samples.

Results

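The 10 genes described here encode 8 nuclear receptors that control liver metabolism and 2 of their coactivators: Ppara, Nr1h3, Nr1h4, Nr0b2, Nr5a2, Nr1i2, Nr1i3 and Hnf4a, with Ppargc1a and Ppargc1b. They were chosen by name, with earlier results of these data known. Every probe set annotated to exactly 1 of these symbols was taken. That gave 23 probe sets for the 10 genes, out of 45037 probe sets for 18193 genes in all. Liver RNA of 6 male BALB/cCrSlc mice, an inbred albino strain, was measured on 1 Affymetrix 3' array per mouse. In the 6C+4CP diet, eaten by 3 of the mice, protein came as 6% casein with 4% collagen peptide from fish. The 10C control diet of the other 3 had 10% casein and no collagen peptide named. Both diets were low-protein versions of the purified rodent diet AIN-93M, and were fed for 10 weeks. Livers were taken from the mice, then 17 weeks old, once food had been withheld for 3 h. From the 12 mice on either diet, 3 of medium food efficiency (weight gain per food eaten) were selected, so the arrays stand for animals picked near the middle of their group. Because less casein and added collagen peptide came as one change, they cannot be told apart.

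Nuclear receptors are transcription factors switched by small fat-soluble molecules. PPARa is activated by fatty acids and turns on their oxidation in the fasting liver, LXRa and FXR respond to oxysterols and bile acids, and PXR and CAR respond to foreign chemicals and some bile acids. HNF4a keeps hepatocytes differentiated, and the PGC-1 coactivators bind such receptors and raise the transcription of their targets.

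Values below are the deposited values, treated as log2, and a difference is the mean of 6C+4CP minus the mean of 10C on that scale. The median value lay between 6.306 and 6.308 on all 6 arrays. Of all probe sets, 7791 (17.3%) ranged over more than 0.01 across the 6 mice and are called varying, while the rest hold nearly the same value in all mice (within 0.01) and show nothing about the diets. One mouse stood apart from its diet: over varying probe sets 10C replicate 3 correlated with the other 10C mice at r = 0.971 and 0.973. It correlated with 6C+4CP replicate 2 at 0.985, but with 6C+4CP replicates 1 and 3 at 0.971 and 0.974. These correlations run over probe sets of 1 pair of arrays, not over replicates. Some of the results that 10C replicate 3 moves are also given without it, and others are not. Of the 13 hepatocyte markers listed, 10 were measured, among them Alb at a shared 14.23 and Ttr at 13.87 to 13.93. Of these markers 7 varied, 1 (Ttr) with a higher mean in 6C+4CP and 6 with a lower one. In 1 the 6C+4CP mice all lay above the 10C mice and in 3 all below, against 11.8% and 9.52% of all varying genes. The summed antilog values of the 10 markers ran from 104606 to 105743 in 6C+4CP and from 108328 to 110993 in 10C, without overlap. In bulk tissue, fewer cells of a type and less RNA per cell cannot be told apart, and the part of this gap in the results below was not tested.

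Of the 23 probe sets, 15 varied, and they covered 8 of the 10 genes. The split was wide: the varying probe set with the smallest range spanned 0.094 and the shared one with the largest range spanned 2.37e-07. In 6C+4CP, 11 of the 15 had a higher mean and 4 a lower one, with a median difference of 0.23. In 7 of them the 3 mice fed 6C+4CP all lay above the 3 fed 10C, and in 0 did they all lie below. Among all varying probe sets 19.9% lay apart, 10.8% as higher and 9.11% as lower. The 7 belong to Ppara (2), Nr1i2 (2), Hnf4a (2) and Ppargc1b (1), so each of these genes had higher values in every 6C+4CP mouse on at least 1 probe set. Probe sets of the same gene measure it in the same mice and are not independent. On the brightest probe set of each gene, 4 of the 8 varying genes lay apart as higher and 0 as lower. The shares of all varying genes were 11.8% and 9.52%. Without 10C replicate 3, 9 probe sets lay apart as higher and 0 as lower, against 16.7% and 21% of all varying probe sets. Without 6C+4CP replicate 2 the counts were 7 higher and 2 lower, against 17.3% and 15.7%. Without 10C replicate 1 or 2 the counts were 7 higher and 1 lower. The shares of all varying probe sets were then 14.7% or 15.9% as higher, and at least 12.5% as lower.

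No probe set of the 10 genes passed limma's test across all probe sets (0 of 23 at an adjusted p under 0.05, against 0.242% of all probe sets). Their adjusted p ran from 0.34 to 1, with 6 of the 23 at an unadjusted p under 0.05, against 6.42% of all probe sets. When limma was fitted to varying probe sets alone, the adjusted p of the 15 ran from 0.123 to 0.996. In that fit 7 of the 15 had an unadjusted p under 0.05, against 14.6% of all varying probe sets, and 0 of the 7791 passed (0%). With 3 mice per diet the smallest p of a two-sided exact permutation test of a single gene is 0.1, so no gene could pass alone by that test. The differences below are therefore measured sizes with their standard errors (SE) from the fit to all probe sets, and none is a called change.

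**Figure D1:**
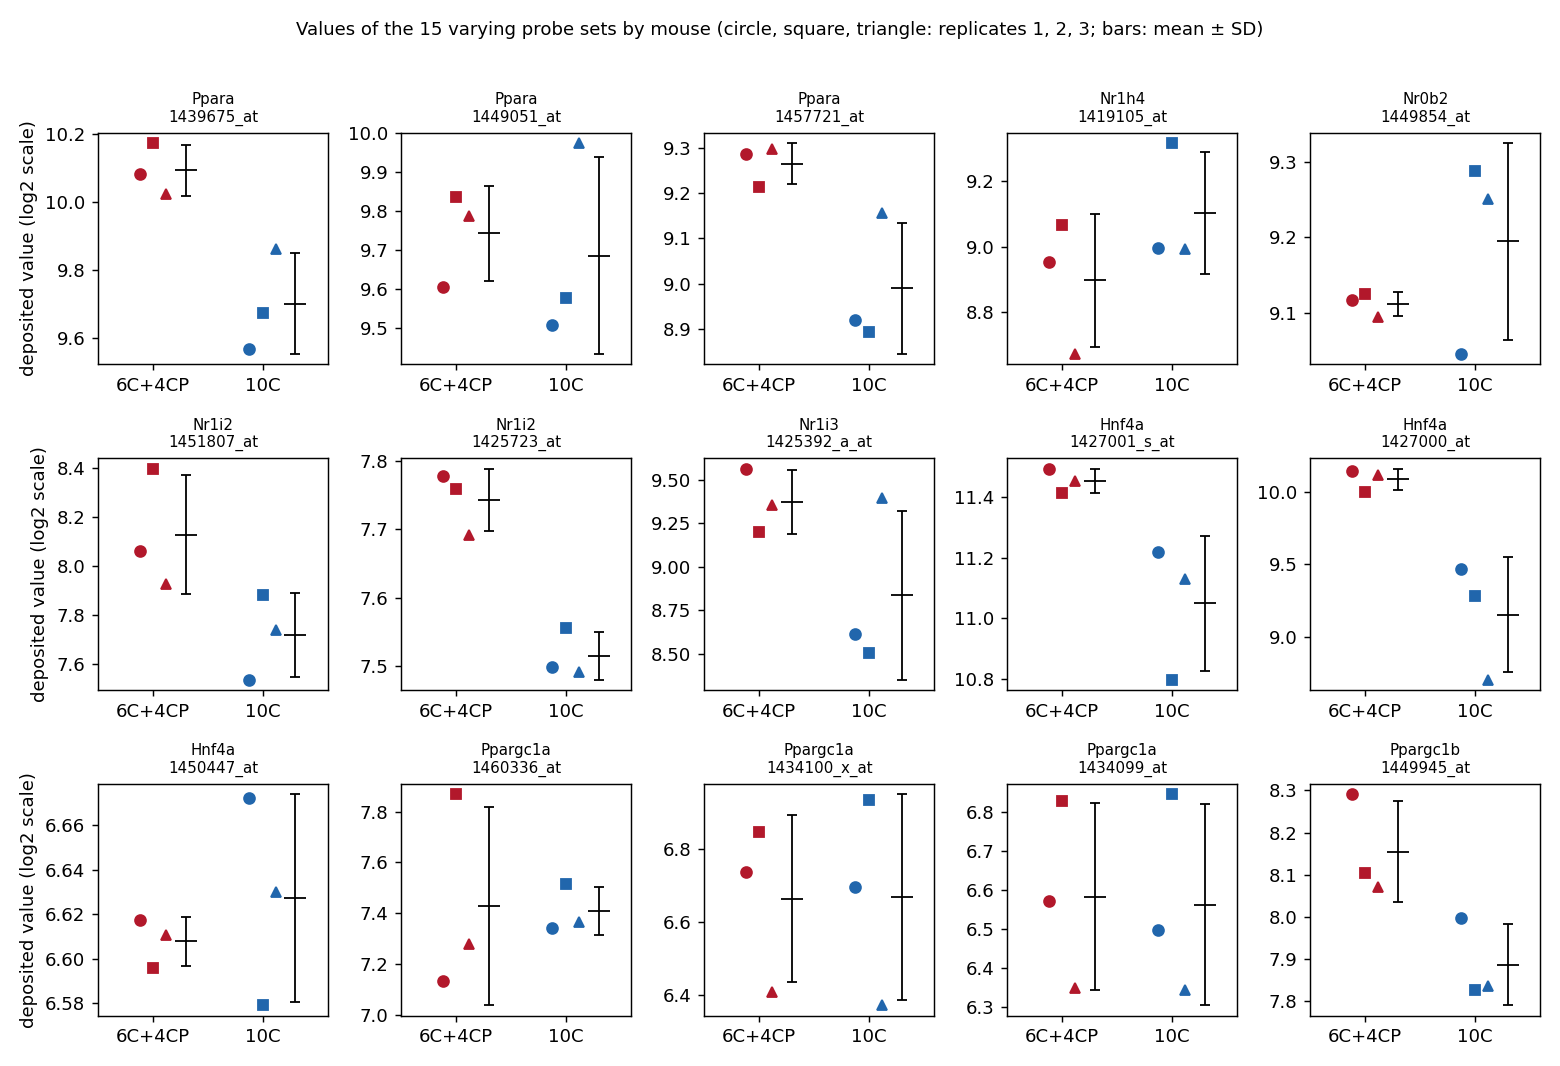
Deposited log2-scale value (vertical axis) of each of the 15 varying probe sets in each mouse, with 6C+4CP left and 10C right; circles, squares and triangles are replicates 1, 2 and 3, and bars are mean ± SD of 3 mice. All 3 mice fed 6C+4CP lie above all 3 fed 10C in 7 panels, those of Ppara (2), Nr1i2 (2), Hnf4a (2) and Ppargc1b (1), and each panel has its own scale.

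Ppara, the fatty acid receptor, had higher values in 6C+4CP on 2 of its 3 probe sets. Probe set 1439675_at read 10.08, 10.17 and 10.02 in the 6C+4CP mice, against 9.57, 9.67 and 9.86 in the 10C mice, a difference of 0.39 (SE 0.094, adjusted p = 0.572) or 1.31 times. The diets did not overlap, and the highest 10C mouse was replicate 3. Probe set 1457721_at read 9.29, 9.21 and 9.30 in 6C+4CP and 8.92, 8.89 and 9.16 in 10C, a difference of 0.27 (SE 0.086). Its order was the same, with the 10C values all lower and replicate 3 the nearest of them.

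The remaining Ppara probe set, 1449051_at, did not separate the diets. It read 9.61, 9.84 and 9.79 in 6C+4CP and 9.51, 9.58 and 9.97 in 10C, a difference of 0.057 (SE 0.16, 95% interval -0.38 to 0.49). Here 10C replicate 3 was the highest of all 6 mice. Without that mouse the differences of the 3 probe sets were 0.47, 0.36 and 0.20, and without 10C replicate 1 they were 0.33, 0.24 and -0.032, in the order described.

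Known targets of PPARa had higher values throughout in 6C+4CP. Their list was chosen with earlier results of these data known, so its contrast with all varying genes is not independent support. Of 32 listed targets 29 were measured and 28 varied, 28 with a higher mean and 0 with a lower one, and in 14 the diets did not overlap. Their median difference was 0.85, beside -0.0051 for the 4074 varying genes of the table, of which 48.0% had a higher mean and 11.8% lay apart as higher. Hadhb, a subunit of the trifunctional enzyme of beta-oxidation, read 11.85, 11.85 and 11.69 in 6C+4CP and 11.12, 11.35 and 11.16 in 10C, a difference of 0.59 (SE 0.090). Cpt1a, the carnitine acyltransferase that lets long-chain fatty acids enter mitochondria, had a difference of 0.58 (SE 0.14), Slc25a20, the carnitine-acylcarnitine carrier, one of 0.97 (SE 0.24), and Slc22a5, the carnitine importer, one of 1.77 (SE 0.44). By limma on 1 probe set per gene 0 of the targets passed, against 0.253% of all genes, and 0 passed in the fit to varying genes, against 0.123% of them. In that fit 16 of the 28 had an unadjusted p under 0.05, against 15.9% of all varying genes.

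Among the targets, too, 10C replicate 3 was most often the 10C mouse nearest to the other diet. In 23 of the 28 varying targets it was the highest 10C mouse, which it was in 31.9% of all varying genes. The lowest 6C+4CP mouse was replicate 1 in 19 of the 28, for which no share over all genes was taken. The median of the mean-centred target values was 0.12, 0.43 and 0.48 in the 6C+4CP mice and -0.57, -0.54 and 0.079 in the 10C mice. Without 10C replicate 3 the median target difference was 1.05, and 25 of the 28 targets lay apart as higher, against 18.2% of all varying genes. That median was smaller, at 0.70, 0.71 and 0.72, without 10C replicate 1, 10C replicate 2 and 6C+4CP replicate 3. It was 0.90 and 0.86 without 6C+4CP replicates 1 and 2. For Ppara on its brightest probe set the mean-centred values were 0.19, 0.28 and 0.13 in 6C+4CP, and -0.33, -0.22 and -0.036 in 10C.

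**Figure D2:**
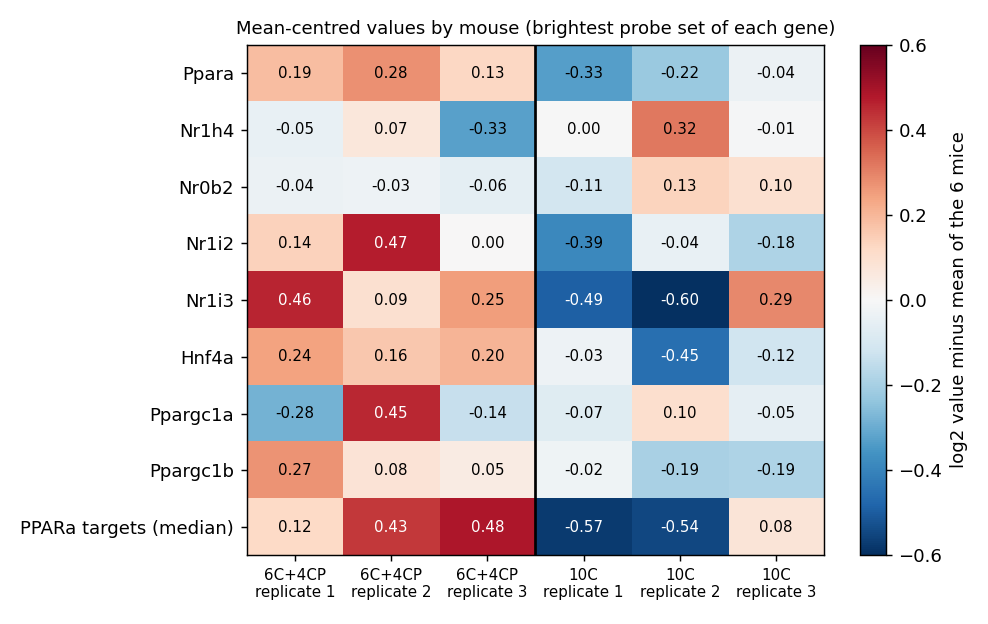
Log2 value minus the mean of the 6 mice (colour and number) for the brightest probe set of each of the 8 genes with a varying one, and in the bottom row the median over the 28 varying PPARa targets; 6C+4CP mice are the 3 left columns and 10C mice the 3 right ones. Ppara, Nr1i2, Hnf4a and Ppargc1b are above 0 in all 6C+4CP mice and below 0 in all 10C mice, while Nr1i3 and the targets are above 0 in 10C replicate 3 as well.

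The promoter window of Ppara is shown because its transcript is among those whose values lay apart. It runs from 250 bases before the gene's start to 50 after it, is printed 5′ to 3′ on the gene's own strand, and comes from RefSeq (GRCm38.p6, chr15:85735526-85735825, plus strand), a reference made from another mouse strain. Capitals mark matches to any of 7 short motifs searched on both strands. The receptor half-site AGGTCA was searched alone and as a direct repeat with 1 base between its copies, which contains it. The half-site variant AGGGCA and the further variant AGTTCA were searched too, as were the E-box CACGTG, the sequence TATAAA of the TATA box, and GTTAAT as a half-site of the hepatocyte factor HNF1.
Ppara: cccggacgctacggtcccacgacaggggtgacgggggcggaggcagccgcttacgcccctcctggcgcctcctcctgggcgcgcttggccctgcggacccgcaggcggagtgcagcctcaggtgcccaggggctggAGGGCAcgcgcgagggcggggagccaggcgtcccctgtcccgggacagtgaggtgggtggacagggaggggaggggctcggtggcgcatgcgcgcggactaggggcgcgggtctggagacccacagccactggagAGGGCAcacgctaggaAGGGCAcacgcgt
The Ppara window held AGGGCA at 3 places, starting at -114, 22 and 38 from the start, and no other motif of the search. Among all 32851 windows, 20.4% held AGGGCA at least once. The window was rich in G and C (74.7%, against a median of 52.7% over all windows). These letters are a description of the window and do not show binding.

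Among the sterol and bile acid receptors, those that varied overlapped between the diets. Nr1h4, the bile acid receptor FXR, read 8.95, 9.07 and 8.67 in 6C+4CP and 8.997, 9.32 and 8.99 in 10C, a difference of -0.20 (SE 0.16, 95% interval -0.63 to 0.22). The lowest mouse was 6C+4CP replicate 3 and the highest 10C replicate 2, and the difference shrank to -0.091 without the first and -0.096 without the second. Nr0b2, the repressor SHP that FXR induces and that has no DNA-binding domain, read 9.12, 9.12 and 9.09 in 6C+4CP and 9.05, 9.29 and 9.25 in 10C. Its difference was -0.082 (SE 0.074, 95% interval -0.29 to 0.12), and the 6C+4CP mice lay inside the 10C range, with an SD of 0.016 against 0.13 in 10C. The difference was -0.16 without 10C replicate 1 and -0.036 without 10C replicate 2.

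Nr1h3, the oxysterol receptor LXRa, and Nr5a2, the receptor LRH-1 that supports bile acid synthesis, could not be compared. The single Nr1h3 probe set read 8.11 in all 6 mice. The 4 probe sets of Nr5a2 read 9.02, 8.67, 8.18 and 6.04, each the same in all mice. These shared values do not show that the transcripts were equal in the diets.

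Target genes of these receptors went both ways. Of the 15 varying FXR and SHP targets (21 measured of 22 listed) 4 had a higher mean and 11 a lower one, with a median difference of -0.14, and 2 lay apart as higher and 3 as lower, against 11.8% and 9.52% of varying genes. The list mixes induced genes with repressed ones such as Cyp7a1, so these counts and the median carry no direction of receptor activity. Without each mouse in turn that median lay between -0.12 (without 6C+4CP replicate 3) and -0.042 (without 10C replicate 3), and it was -0.051 without 6C+4CP replicate 1 and -0.055 without 10C replicate 2. Cyp7a1, which catalyses the first step of the classic route to bile acids and is repressed by SHP and induced by LXRa in mice, read 6.38, 7.82 and 6.04 in 6C+4CP and 8.66, 9.18 and 9.34 in 10C. That was a difference of -2.31 (SE 0.57) without overlap. Cyp27a1, the mitochondrial sterol hydroxylase, differed by -0.38 (SE 0.063), and Slc27a5, which activates bile acids for conjugation, by -0.17 (SE 0.069). Abcc2, a canalicular exporter of conjugates, differed by 0.29 (SE 0.11), and each of these 4 genes lay apart between the diets.

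Of the 11 varying LXRa targets (15 measured of 17 listed) 5 had a higher and 6 a lower mean, and the median difference was -0.045. Among them Abcg8, a subunit of the transporter that exports sterols into bile, differed by 0.19 (SE 0.049) without overlap. Abca1, which loads cholesterol onto apolipoprotein A-I, read 10.89, 10.63 and 10.49 in 6C+4CP and 11.33, 11.22 and 10.90 in 10C, a difference of -0.48 (SE 0.17). Fasn, the fatty acid synthase, read 8.16, 7.93 and 7.89 in 6C+4CP against 11.00, 11.49 and 8.59 in 10C, so its difference of -2.37 (SE 0.88) was -3.25 without 10C replicate 3. The 6 varying LRH-1 targets (7 measured of 10 listed) split into 3 higher and 3 lower, with a median difference of -0.027 that was 0.052 without 10C replicate 3. Among them Abcg5, the partner of Abcg8, differed by 0.56 (SE 0.22) with overlap, and Plk3, a kinase, by 0.69 (SE 0.15) without overlap. Abcg5, Abcg8, Cyp7a1 and Cyp8b1 are also in the LXRa list or the FXR and SHP list, so the counts of these lists share genes. By limma on 1 probe set per gene 0 of the FXR, LXRa or LRH-1 targets passed. In the fit to varying genes 0 passed too, with 4 of 15 FXR and SHP targets, 5 of 11 LXRa targets and 4 of 6 LRH-1 targets at an unadjusted p under 0.05, against 15.9% of all varying genes.

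Nr1i2, the xenobiotic receptor PXR, had higher values in 6C+4CP on both of its probe sets. Probe set 1451807_at read 8.06, 8.40 and 7.93 in 6C+4CP and 7.54, 7.88 and 7.74 in 10C, a difference of 0.41 (SE 0.17) or 1.33 times. Probe set 1425723_at read 7.78, 7.76 and 7.69 in 6C+4CP and 7.50, 7.56 and 7.49 in 10C, a difference of 0.23 (SE 0.033). The second had the lowest adjusted p of the 15 probe sets (0.34, and 0.123 in the fit to varying probe sets). Neither probe set overlapped between the diets, and leaving out each mouse in turn gave 0.27 to 0.51 for the first and 0.21 to 0.25 for the second.

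Nr1i3, the receptor CAR, had a higher mean in 6C+4CP, and 1 mouse made the diets overlap. It read 9.56, 9.20 and 9.35 in 6C+4CP and 8.61, 8.50 and 9.39 in 10C, so 10C replicate 3 lay within the 6C+4CP range and the other 10C mice well below it. The difference was 0.53 (SE 0.29, 95% interval -0.27 to 1.34, adjusted p = 0.777). Without 10C replicate 3 it was 0.81 and the diets did not overlap, and without each of the other mice it was 0.37 to 0.62.

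Genes that PXR and CAR induce were mixed. Of 35 listed, 29 were measured and 22 varied, 15 with a higher mean and 7 with a lower one, and the median difference was 0.19, or 0.093 without 10C replicate 2. In 6 the diets lay apart as higher and in 2 as lower, against 11.8% and 9.52% of varying genes, and 0 passed limma. In the fit to varying genes 6 of the 22 had an unadjusted p under 0.05, against 15.9% of all. Gsta2, a glutathione transferase, read 8.92, 8.73 and 9.52 in 6C+4CP and 8.09, 7.37 and 7.40 in 10C, a difference of 1.43 (SE 0.33). Aldh1a7, an aldehyde dehydrogenase, differed by 1.03 (SE 0.31). In the opposite direction Abcc3, a basolateral exporter, differed by -0.45 (SE 0.11) and Cyp2c29, a drug-metabolising cytochrome, by -0.62 (SE 0.20). Cyp3a11, the main PXR-induced cytochrome in mouse liver and chosen here after its values were seen, overlapped between the diets at -0.29 (SE 0.18). Cyp2b10, the cytochrome most used as a sign of CAR activity and also chosen afterwards, held a shared value in all mice.

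The RefSeq promoter window of Nr1i2 is shown beside that of Ppara because both transcripts lay apart in the same direction (GRCm38.p6, chr16:38294775-38295074, minus strand, printed 5′ to 3′ on that strand).
Nr1i2: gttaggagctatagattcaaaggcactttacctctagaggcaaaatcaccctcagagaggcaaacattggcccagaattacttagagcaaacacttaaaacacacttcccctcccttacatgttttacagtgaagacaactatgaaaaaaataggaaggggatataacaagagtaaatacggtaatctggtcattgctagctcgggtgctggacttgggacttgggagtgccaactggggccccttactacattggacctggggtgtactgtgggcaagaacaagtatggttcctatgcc
None of the 7 motifs was present in these 300 bases, so no letter is in capitals, and the GC content was 45.3%. The window thus shared no searched motif with that of Ppara.

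Hnf4a, the receptor that maintains hepatocyte identity, had the largest difference of the 15 varying probe sets, on 1427000_at. On the brightest probe set of each gene, Nr1i3 (0.53) and Nr1i2 (0.41) differed more than Hnf4a (0.40). Probe set 1427000_at read 10.14, 10.00 and 10.11 in 6C+4CP and 9.47, 9.28 and 8.71 in 10C, a difference of 0.93 (SE 0.23, 95% interval 0.30 to 1.56, adjusted p = 0.572) or 1.91 times. Probe set 1427001_s_at, the brightest, read 11.49, 11.41 and 11.45 in 6C+4CP and 11.22, 10.80 and 11.13 in 10C, a difference of 0.40 (SE 0.13). On both, the 6C+4CP mice lay close together and above all 10C mice, with an SD of 0.074 and 0.041 in 6C+4CP against 0.40 and 0.22 in 10C.

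The other Hnf4a probe sets gave no such gap. Probe set 1450447_at read 6.62, 6.60 and 6.61 in 6C+4CP and 6.67, 6.58 and 6.63 in 10C, a difference of -0.019 (SE 0.027), and 1421983_s_at held 8.52 in every mouse. The values of 1450447_at lay not far above the array median of 6.31, and no signal over background is given. The lowest 10C mouse differed between the 2 separated probe sets, being replicate 3 for 1427000_at and replicate 2 for 1427001_s_at. Without 10C replicate 3 their differences were 0.71 and 0.45, and without 10C replicate 2 they were 0.99 and 0.28.

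Hnf4a has 2 RefSeq starts in the table, and both windows are printed because the separated probe sets are not assigned to either start here (GRCm38.p6, plus strand, chr2:163506607-163506906 for the upstream start and chr2:163546905-163547204 for the downstream one). The downstream promoter is known as the one used mainly in adult hepatocytes.
Hnf4a upstream: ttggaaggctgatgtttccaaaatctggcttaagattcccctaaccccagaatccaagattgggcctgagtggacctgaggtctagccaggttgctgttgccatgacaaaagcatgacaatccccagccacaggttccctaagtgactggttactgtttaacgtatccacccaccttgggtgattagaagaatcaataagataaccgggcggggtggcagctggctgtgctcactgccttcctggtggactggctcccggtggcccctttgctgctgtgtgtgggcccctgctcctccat
Hnf4a downstream: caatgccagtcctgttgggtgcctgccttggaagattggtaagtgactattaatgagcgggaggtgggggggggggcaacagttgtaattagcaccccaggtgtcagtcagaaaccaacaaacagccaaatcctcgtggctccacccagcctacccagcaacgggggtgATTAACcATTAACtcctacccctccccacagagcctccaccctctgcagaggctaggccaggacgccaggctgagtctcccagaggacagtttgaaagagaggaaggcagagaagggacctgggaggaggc
The upstream window held none of the 7 motifs. The downstream window held GTTAAT on the opposite strand at 2 places, read as ATTAAC in the printed strand and starting at -81 and -74. Among all windows, 7.10% held GTTAAT on either strand. Over the 12 windows that matched 9 of the 10 genes, 5 held AGGGCA and 3 held GTTAAT. The half-site AGGTCA was in 2, against 16.3% of all windows, the E-box CACGTG in 2, against 7.15%, and the TATA motif in 2, against 13.6%. The variant AGTTCA and the direct repeat, present in 14.0% and 0.0396% of all windows, were found in 0 of the 12.

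Genes that HNF4a activates went both ways. Of 29 listed, 25 were measured and 19 varied, 6 with a higher mean and 13 with a lower one, and their median difference was -0.017, or -0.056 to -0.0075 without each mouse in turn. In 2 the diets lay apart as higher and in 5 as lower, against 11.8% and 9.52% of varying genes, with 0 passing limma. In the fit to varying genes 4 of the 19 had an unadjusted p under 0.05, against 15.9% of all. Gys2, the liver glycogen synthase, read 10.86, 10.92 and 10.75 in 6C+4CP and 10.25, 10.36 and 10.40 in 10C, a difference of 0.51 (SE 0.066). Apoa1, which encodes apolipoprotein A-I, had a difference of -0.11 (SE 0.024), and Ttr, the thyroxine carrier transthyretin, one of 0.032 (SE 0.012). Otc, the ornithine transcarbamylase of the urea cycle, differed by -0.15 (SE 0.053).

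Of the coactivators, Ppargc1b lay apart between the diets and Ppargc1a did not, and the difference between them was not tested. Ppargc1b, the coactivator PGC-1b, read 8.29, 8.10 and 8.07 in 6C+4CP and 7.996, 7.83 and 7.83 in 10C, a difference of 0.27 (SE 0.087, 95% interval 0.031 to 0.51) or 1.20 times, without overlap. Leaving out each mouse in turn gave 0.20 to 0.32. Ppargc1a, the fasting-induced coactivator PGC-1a, had 5 probe sets, of which 3 varied and 2 held shared values of 6.76 and 6.93.

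None of the varying Ppargc1a probe sets separated the diets. The values of 1434099_at and 1434100_x_at, 6.34 to 6.93, lay not far above the array median of 6.31, and no signal over background is given. Probe set 1460336_at read 7.13, 7.87 and 7.28 in 6C+4CP and 7.34, 7.52 and 7.36 in 10C, a difference of 0.020 (SE 0.23, 95% interval -0.60 to 0.64). Probe set 1434099_at read 6.57, 6.83 and 6.35 in 6C+4CP and 6.50, 6.85 and 6.34 in 10C, a difference of 0.021 (SE 0.20). Probe set 1434100_x_at, whose suffix marks probes that may bind other transcripts, read 6.74, 6.85 and 6.41 in 6C+4CP and 6.70, 6.93 and 6.37 in 10C, a difference of -0.0041 (SE 0.21). The spread lay between mice: the mouse numbered 2 was the highest of its diet on all 3 probe sets, and on 2 of them the mouse numbered 3 was the lowest of its diet. The intervals reach 0.64 and -0.60, so changes of that size are not shown to be absent.

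Targets of the PGC-1 coactivators were mixed. Of 32 listed, 31 were measured and 20 varied, 11 with a higher mean and 9 with a lower one, with a median difference of 0.0063 (0.0040 to 0.033 without each mouse in turn). In 2 the diets lay apart as higher and in 1 as lower, against 11.8% and 9.52% of varying genes. Cpt1a, given above, is also a PGC-1 target. Cycs, the cytochrome c of the respiratory chain, differed by 0.20 (SE 0.059) on its brightest probe set and the other way on its 1 other varying one, and Sdhb, a subunit of respiratory complex II, by -0.18 (SE 0.048). Alas1, the first enzyme of heme synthesis, read 11.27, 10.98 and 10.50 in 6C+4CP and 9.19, 10.12 and 10.75 in 10C, with overlap. Its difference of 0.90 (SE 0.50) was 1.26 and without overlap when 10C replicate 3 was left out, and 0.48 without 10C replicate 1. Limma called 0 of the PGC-1 targets, and 3 of the 20 had an unadjusted p under 0.05 in the fit to varying genes, against 15.9% of all.

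**Figure D3:**
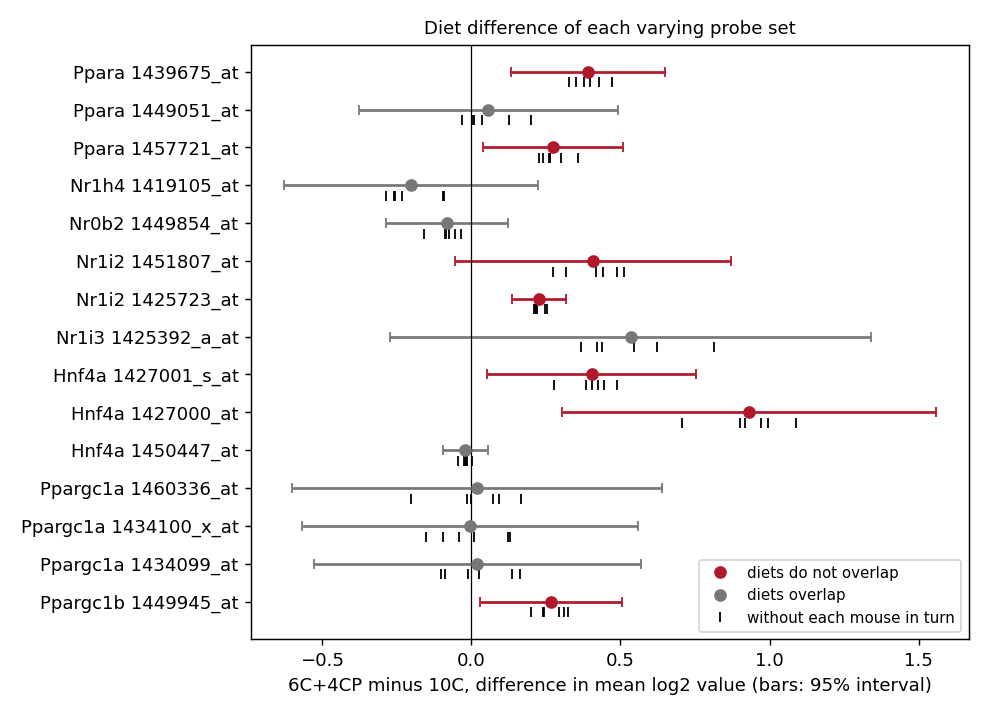
Difference in mean log2 value, 6C+4CP minus 10C (horizontal axis), for each of the 15 varying probe sets, with 95% intervals from limma fitted to all probe sets; red points are probe sets whose diets do not overlap, and black ticks give the difference without each mouse in turn. The 7 red points lie between 0.23 and 0.93, and the 3 Ppargc1a points lie at 0.020, -0.0041 and 0.021.

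Other nuclear receptors and coregulators were set beside the 10 genes. Of 40 other receptors 36 were measured and 6 varied, 5 with a higher mean and 1 with a lower one. In 0 of the 6 did the diets lie apart, against 21.4% of all varying genes, and 6 genes are too few to tell from that share. Rxra, the partner with which PPARa, LXRa, FXR, PXR and CAR bind DNA, chosen here after its values were seen, held a shared value in all mice. Nr1d2, a clock receptor, differed by 0.35 (SE 0.33), Rora, its activating counterpart, by 0.073 (SE 0.064), and Nr3c1, the glucocorticoid receptor, by 0.070 (SE 0.069). Without 10C replicate 3 the differences of Nr1d2 and Nr3c1 were 0.11 and 0.012. Esr1, the estrogen receptor, read 7.95, 8.14 and 8.24 in 6C+4CP and 7.58, 7.67 and 9.99 in 10C, so its difference of -0.30 (SE 0.78) became 0.49 without 10C replicate 3.

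Of 30 other coregulators 28 were measured and 10 varied, 8 with a higher mean and 2 with a lower one, with 2 lying apart as higher, against 11.8% of varying genes. Sirt1, the deacetylase that activates PGC-1a, read 7.82, 7.72 and 7.61 in 6C+4CP and 7.25, 7.42 and 7.0 in 10C, a difference of 0.49 (SE 0.14). Lcor, a ligand-dependent corepressor, differed by 0.26 (SE 0.076), also without overlap. Tbl1xr1, a subunit of corepressor complexes, differed by 0.24 (SE 0.097) and Ncoa2, a p160 coactivator, by 0.027 (SE 0.034), both with overlap. No gene of these 2 lists passed limma, and in the fit to varying genes 0 of 6 receptors and 3 of 10 coregulators had an unadjusted p under 0.05, against 15.9% of all.

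**Figure D4:**
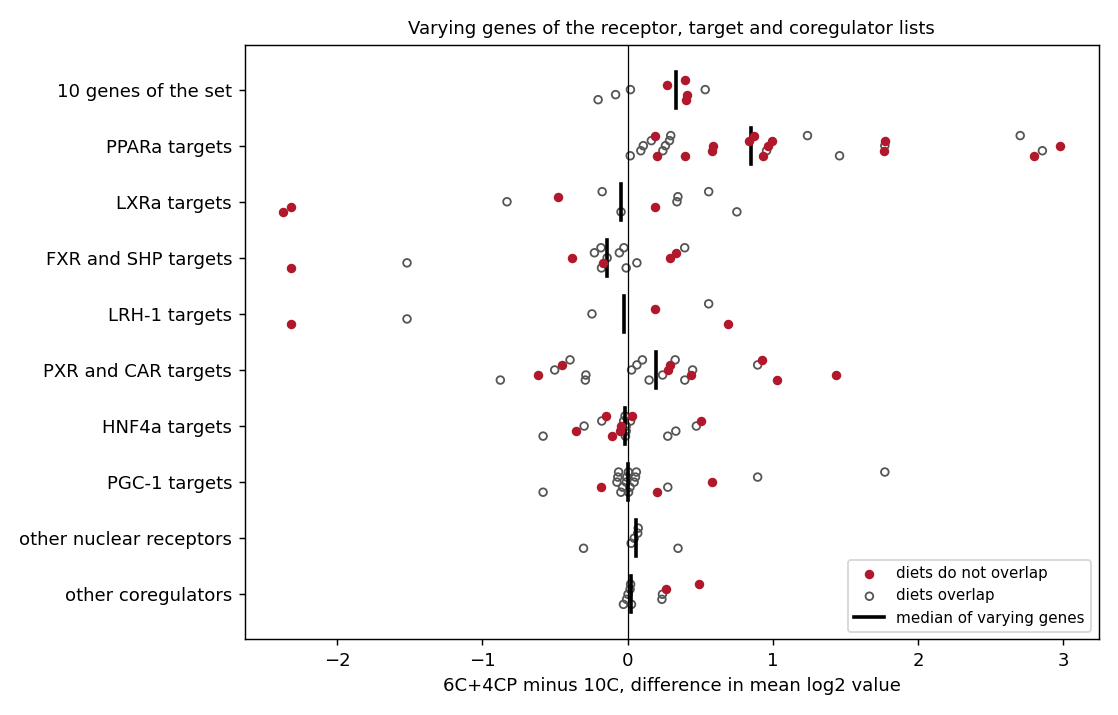
Difference in mean log2 value, 6C+4CP minus 10C (horizontal axis), of each varying gene in 10 lists (rows), 1 brightest probe set per gene; filled red points are genes whose diets do not overlap, open points those that overlap, and vertical bars are medians. All 28 PPARa targets lie above 0 with a median of 0.85, while the medians of the HNF4a and PGC-1 targets are -0.017 and 0.0063.

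For each gene with a varying brightest probe set, the gene of closest profile was sought among 151 varying genes of the other lists, as the smallest mean absolute difference of mean-centred values over the 6 arrays. Ppara lay closest to Slc27a2, a fatty acid transporter and very long chain acyl-CoA synthetase, at 0.049. Slc27a2 read 13.27, 13.44 and 13.30 in 6C+4CP and 12.79, 12.97 and 13.25 in 10C, with the same 10C mouse nearest to the other diet. Nr1i2 lay closest to Acaa1a, a peroxisomal thiolase, at 0.096, Hnf4a to Slc40a1, an iron exporter, at 0.083, and Ppargc1b to Abcg8 at 0.048.

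The remaining pairs were Nr1i3 with Aldh1a1, a retinaldehyde dehydrogenase, at 0.17, and Nr1h4 with Sdc1, a heparan sulfate proteoglycan, at 0.081. Aldh1a1 read 12.74, 12.85 and 13.08 in 6C+4CP and 12.27, 12.24 and 12.82 in 10C, and so shared with Nr1i3 a 10C replicate 3 inside the 6C+4CP range. Nr0b2 lay closest to Cox5b, a subunit of cytochrome oxidase, at 0.039, and Ppargc1a to Ncoa4, a coactivator that also acts as a ferritin receptor, at 0.076. The values of the genes themselves deviated from their own means by 0.077 (Nr0b2) to 0.36 (Nr1i3) on average, which is the scale against which these distances stand.

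Markers of other liver cells were set beside these results. Of the Kupffer cell and macrophage list 9 of 15 measured markers varied, 2 with a higher and 7 with a lower mean, and their summed antilog values overlapped, from 4548 to 5855 in 6C+4CP and from 4532 to 6048 in 10C. The B cell list summed to 630 to 661 in 6C+4CP and 724 to 926 in 10C without overlap, with Ighm, the immunoglobulin heavy chain, lower and Cd22 higher among its 2 varying members of 5 measured. Of the stellate cell list 5 of 11 varied, 1 with a higher mean, and of the sinusoidal endothelium list 2 of 9 varied, 1 with a higher mean. No varying marker was found for cholangiocytes, neutrophils or skeletal muscle, and 1 each varied for T and NK cells, erythroid cells, pancreatic acinar cells and adipocytes. No marker was listed at 0, and the part of these cells in the values of the 10 genes was not tested.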

How the data were processed

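Liver RNA of 6 mice, 3 per diet, was measured on 1 array each; sample titles gave the groups, and the series' design text describes individually housed mice. The deposited table holds the authors' processed log2-scale values. The submitters' processing notes name R 2.7.2. How probes were corrected and combined, and the base of the logarithm, is not stated there, and folds rest on reading the values as log2. No signal over background is given, so the number of arrays limits the precision.

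Of 45101 probe sets 64 Affymetrix controls were left out. Platform annotation gave 1 symbol for 34945 of the rest, several for 932 and none for 9160; a reference gene table changed 0 symbols. The brightest probe set stood for a gene outside the 10. The comparison used lmFit and eBayes of limma 3.58.1 (R 4.3.3) over all 45037 probe sets, tested on simulated data, and called those with an adjusted p (Benjamini-Hochberg) under 0.05; it called 109, of which 103 did not vary. List genes used the same fit on 1 probe set per gene. Besides the 10 genes, up to 4 per target, receptor or coregulator list with the smallest p were named.

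The 10 genes and the lists (21 lists of 339 symbols, 297 measured) were chosen with earlier results of these data known. Alternatives tried were a block for the replicate number, each mouse left out, quantile normalization, median centring, varying or brighter probe sets alone, an intensity trend with robust estimation, a range over 0.1, 1 probe set per gene, and a gene's probe sets averaged. Same-numbered mice were not taken as pairs: the correlations of their deviations from the diet means were 0.48 for number 1, -0.089 for number 2 and 0.085 for number 3.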

Additional observations from a re-analysis of the deposited data

How the results depend on the processing

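The count of 7 probe sets of the 10 genes whose diets lie apart was also 7 with quantile normalization and with median centring. It was 7 with brighter probe sets alone and with a range over 0.1. Those 2 filters could not lower it, as all 7 were brighter than the array median and ranged over at least 0.286. The count was 7 to 9 when each mouse was left out (7 higher and 2 lower without 6C+4CP replicate 2, 9 higher and 0 lower without 10C replicate 3). Leaving out a mouse cannot make separated diets overlap, so that count could not fall below 7. With 1 probe set per gene it was 4 of the 8 varying genes, all higher, against 11.8% of all varying genes. The number of probe sets called by limma over the whole table depended on the setting: 109 as reported, 285 to 398 without each mouse in turn, 46 on 1 probe set per gene, 3 with the replicate block, 1 with quantile normalization, and 0 with median centring, on varying probe sets alone (1140 at an unadjusted p under 0.05), on brighter probe sets alone and with an intensity trend and robust estimation. None of the 15 varying probe sets of the 10 genes passed under any of 12 alternatives (adjusted p 0.123 to 1), the replicate block among them. The replicate block, varying or brighter probe sets alone, and the intensity trend left every difference unchanged. No sign could therefore turn in those settings, though their values are counted in the 180. The sign turned in 11 of the 180 values, all for probe sets that overlapped: Ppara 1449051_at (-0.032 without 10C replicate 1, range to 0.20), Hnf4a 1450447_at (0.0033 without 10C replicate 1, range from -0.043), Ppargc1a 1460336_at (-0.013, -0.0020 and -0.20 without 10C replicates 1 and 3 and 6C+4CP replicate 2, range to 0.17), 1434100_x_at (0.0099, 0.13 and 0.12 without 10C replicates 1 and 2 and 6C+4CP replicate 3, range from -0.15) and 1434099_at (-0.011, -0.089 and -0.10 without 10C replicates 1 and 3 and 6C+4CP replicate 2, range to 0.16); the cause was not tested. Medians of the 7 target lists over all measured genes, shared values near 0 included, moved by less than the spread between mice in 50 of 70 values; that of the HNF4a targets was -0.0090, or 0.011 with quantile normalization.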
